A study of Mus musculus with 6 samples.

Results

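The regions described here are the autosomal EWS-FLI1 peaks that lay in or close to active chromatin in ES49 and ES48, a pair of mouse Ewing sarcoma cell lines. Peaks were chosen by their measured distances to the called histone-mark peaks, so those distances describe the set and support nothing. A peak belonged to the set when an H3K27ac peak of the same line overlapped it or lay within 5 kb, and when no H3K27me3 peak of ES49 lay within 5 kb. They are called H3K27ac-proximal peaks below. ES49 had 76 of them among 335 autosomal EWS-FLI1 peaks and 681 peaks on all chromosomes, and ES48 had 83 among 410 and 614. These are 22.7% and 20.2% of the autosomal peaks, shares that the rule itself fixes.

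The labels describe both lines as murine Ewing sarcoma cells induced by EWS-FLI1 on a Balb/c background, grown without special treatment. EWS-FLI1 was precipitated through a FLAG tag, and H3K27ac with the same antibody in both lines. H3K27me3 and input DNA were sampled in ES49 alone, and the input was not analysed here. Each of the 6 samples is a group of 1 library. There is therefore no test between groups, and every interval below is a 95% Clopper-Pearson interval over peaks that covers counting error only. Neighbouring peaks are not independent, so these intervals are too narrow even for that. The depth of the libraries is unknown, because the lists hold peaks and scores without read counts. Scores are the authors' own, start at 50 in each list and are compared only within a list. The score 3100 recurs among H3K27ac peaks of both lines, so peaks that share it cannot be ranked by score.

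EWS-FLI1 joins the amino-terminal part of EWS, which recruits transcriptional and chromatin regulators, to the ETS-type DNA-binding domain of FLI1, which recognises GGAA cores. At some sites in Ewing sarcoma the fusion protein brings acetyltransferases and raises H3K27ac, the mark of active promoters and enhancers. At others it is associated with loss of activity. H3K27me3 is deposited by Polycomb repressive complexes. Coordinates follow mm9. No gene names are given, since the annotation used here is of GRCm38, another build.

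In ES49 most H3K27ac-proximal peaks lay inside the mark, and in ES48 many lay beside it. In ES49 60 of 76 (78.9%, 68.1 to 87.5) shared at least 1 bp with an ES49 H3K27ac peak, and 43 lay wholly within one. A further 7 were within 1 kb and 9 were 1 to 5 kb away. In ES48 43 of 83 (51.8%, 40.6 to 62.9) overlapped ES48 H3K27ac, 41 of them wholly within the H3K27ac peak. The others comprised 8 within 1 kb and 32 at 1 to 5 kb. Of the peaks that lay beside the mark, 13 of 16 in ES49 and 35 of 40 in ES48 had H3K27ac within 5 kb on 1 side alone, and the other 3 and 5 had it on both sides.

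**Figure D1:**
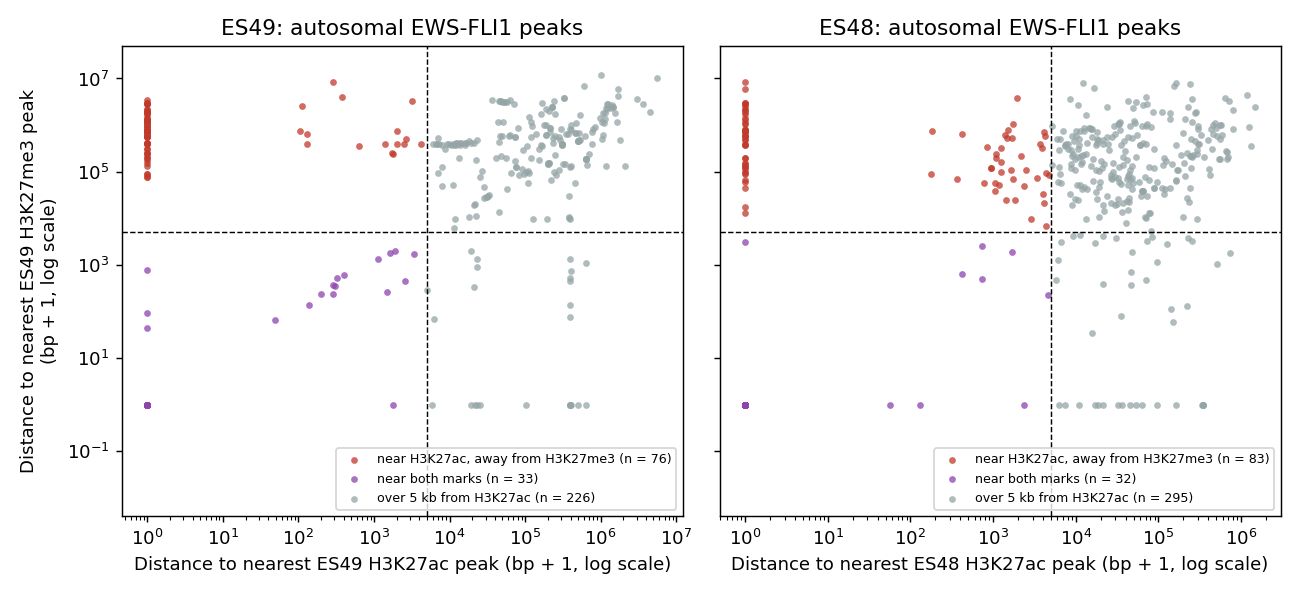
Distance of each autosomal EWS-FLI1 peak to the nearest H3K27ac peak of its own line (x axis, bp + 1, log scale) and to the nearest ES49 H3K27me3 peak (y axis, bp + 1, log scale), in ES49 (left) and ES48 (right), with dashed lines at the 5 kb limits. The 76 ES49 and 83 ES48 H3K27ac-proximal peaks fill the upper left corner, and in ES49 they are separated from the 33 peaks near both marks by an empty band.

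The limit on H3K27me3 cut through an empty range in ES49. The H3K27ac-proximal peaks closest to H3K27me3 were those at chromosome 4 154246219 to 154246593 and 154247180 to 154247650, at 77530 and 78491 bp, and that at chromosome 5 120986761 to 120987144, at 87137 bp. The 33 ES49 peaks that met the H3K27ac condition and failed by H3K27me3 were all within 1938 bp of it. The farthest were chromosome 1 87485057 to 87485650 at 1938 bp and chromosome 2 27351241 to 27351508 at 1836 bp. In ES48 the closest H3K27ac-proximal peaks were at 6675 bp (chromosome 2 152749274 to 152749431), 9710 bp (chromosome 5 35411713 to 35411858) and 12775 bp (chromosome 5 114906670 to 114906853). The 32 ES48 peaks near both marks reached 3136 bp. For ES48 the H3K27me3 map is that of the other line.

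The limit on H3K27ac divided a more continuous range. In ES49 the outermost peaks inside it were at 4209 bp (chromosome 3 25429968 to 25430375), 3171 bp (chromosome 5 63370735 to 63370929) and 2633 bp (chromosome 10 127878827 to 127879141). Peaks just outside, at 5017 and 5803 bp, also had H3K27me3 within 5 kb. The nearest outside without H3K27me3 were at 6071, 6699 and 6738 bp, and all 3 belonged to the chromosome 3 locus described below. In ES48 the outermost inside were at 4723, 4401 and 4327 bp, and the nearest outside without H3K27me3 at 5175, 5225 and 5951 bp.

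The EWS-FLI1 scores of H3K27ac-proximal peaks were close to those of the other autosomal peaks. In ES49 their median score was 77.0 (quartiles 60.7 and 113.8), against 84.4 (62.9 and 151.4) for the other 259 autosomal peaks. In ES48 it was 59.6 (54.6 and 73.5), against 57.5 (54.5 and 66.3) for the other 327. The ranges between the quartiles overlapped in both lines. Scores below 60, near the floor of the list, were held by 18 of 76 in ES49 (23.7%, 14.7 to 34.8) and by 43 of 83 in ES48 (51.8%, 40.6 to 62.9), and the shares over all autosomal peaks were 22.4% and 59.8%. The highest scores lay outside the set. The peaks near both marks had median scores of 172.2 in ES49 and 135.7 in ES48, led by chromosome 17 36621598 to 36622023 (score 1955.7), then chromosome 1 87487508 to 87490135 (1693.1), then chromosome 2 27355162 to 27355959 (1425.0) in ES49. In ES48 the leaders were chromosome 17 39979938 to 39983636 (3100), 39984671 to 39985778 (1885.5) and 36621512 to 36621929 (1365.8). Several of these places carried nearly the same interval in the histone-mark lists, as given below.

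In ES49 the H3K27ac-proximal peaks had a higher median width than the rest, with quartile ranges that overlapped. The median was 376 bp (quartiles 308.8 and 442.8), against 247 bp (149 and 404.5) for the other autosomal peaks. In ES48 the median widths were 184 bp and 181 bp. Peaks near both marks had a median of 333 bp (272 and 432) in ES49 and 197 bp in ES48. A greater width in ES49 was therefore not particular to the set. Within the ES49 set the score went with the peak's own width (Spearman rho 0.507 over 76 peaks, as a description, since a caller's score and width come from the same reads), and less so in ES48 (0.101 over 83). For the score and the width of the nearest H3K27ac peak, rho was -0.119 in ES49 and -0.0563 in ES48, both near 0.

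Within the set, peaks were more crowded in ES49 and mostly single in ES48. The same count was not made over all autosomal peaks. Of those, 29.6% in ES49 and 6.83% in ES48 were in the dense loci defined below. The crowding is therefore not shown to be particular to the set. When peaks less than 12.5 kb apart were joined, the 76 ES49 peaks formed 56 loci, of which 12 held more than 1 peak and together 32 peaks. The 83 ES48 peaks formed 78 loci, and the largest held 2 peaks. Each set was on 17 of the 19 autosomes. Chromosome 5 held the most in both lines, with 17 peaks in 9 loci in ES49 (22.4% of the set, against 9.55% of all autosomal ES49 peaks) and 19 peaks in 16 loci in ES48 (22.9%, against 22.2%). Few were in the dense EWS-FLI1 loci. These are stretches in which at least 10 EWS-FLI1 peaks of the lines together followed each other at under 500 kb. They held 7 in ES49 (9.21%, against 29.6% of autosomal peaks) and 2 in ES48 (2.41%, against 6.83%). The ES48 share rests on 2 peaks, and neither difference was tested.

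The H3K27ac peaks at these sites ranged from 346 to 9578 bp in ES49 and from 174 to 18205 bp in ES48. They were divided into broad and short at the median H3K27ac width of each whole list, a division chosen after the values were seen. In ES49 the median is 838 bp: 55 EWS-FLI1 peaks in 45 loci were nearest to a wider H3K27ac peak, and 21 in 11 loci were nearest to one no wider. In ES48 the median is 1475 bp, and the numbers were 53 in 50 loci and 30 in 28 loci. The H3K27ac peaks of the broad kind had a median width of 3053 bp in ES49 and 4113 bp in ES48. Their median scores were 1686.7 and 3100, and 3100 was also the highest score among them in each line. Those of the short kind had 441 and 488 bp, and scores of 73.6 and 82.8. A wider H3K27ac peak is closer to more of the genome, so the rule favours broad peaks and their excess is no finding.

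**Figure D2:**
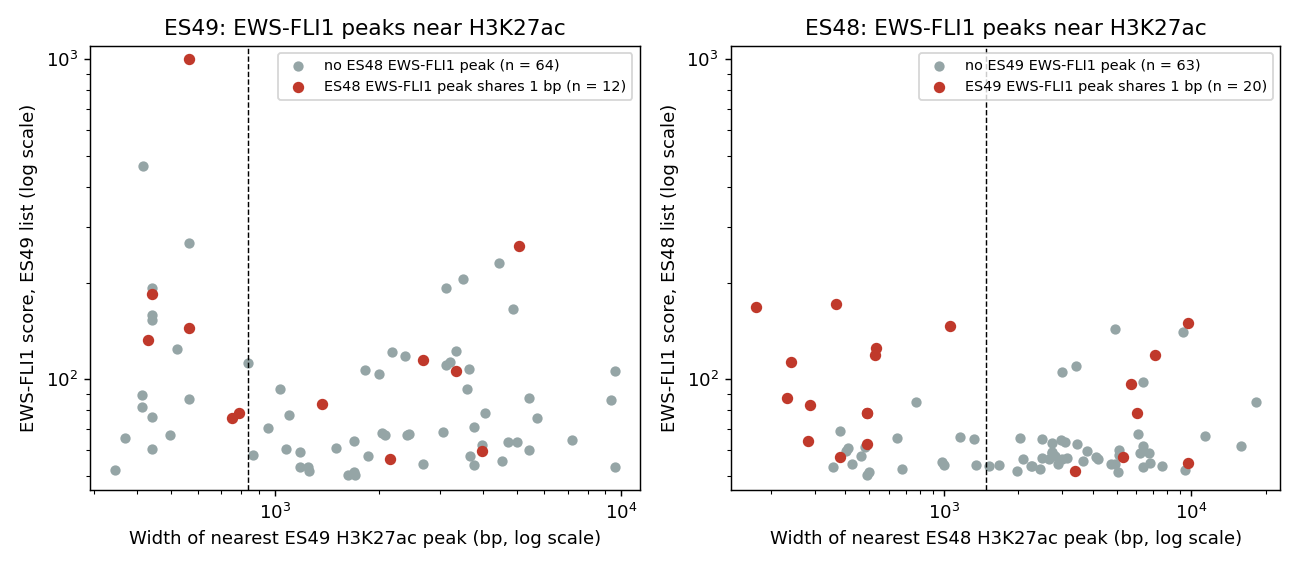
EWS-FLI1 score (y axis, log scale) of each H3K27ac-proximal peak against the width of the nearest H3K27ac peak of the same line (x axis, bp, log scale) in ES49 (left) and ES48 (right). Red points share at least 1 bp with an EWS-FLI1 peak of the other line (12 in ES49, 20 in ES48), and the dashed line is the median H3K27ac width of the list (838 and 1475 bp). The highest ES49 scores, 998.7 and 464.2, and the highest ES48 score, 171.8, lie left of the line.

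The 10 highest-scoring ES49 peaks were divided between the kinds, 5 each. The 5 of the short kind came from 2 loci. At chromosome 5 105354541 to 105357645, 5 ES49 EWS-FLI1 peaks stood within 3105 bp around H3K27ac peaks of 566 and 417 bp whose scores were 100.5 and 73.6. They included the set's 3 highest EWS-FLI1 scores, 998.7 at 105356873 to 105357229, 464.2 at 105357310 to 105357645 and 267.0 at 105354541 to 105354641. At chromosome 3 25429968 to 25438363, 6 EWS-FLI1 peaks with scores of 60.6 to 192.6 stood within 8396 bp around a lone 441 bp H3K27ac peak with a score of 62.3, inside a longer run of EWS-FLI1 peaks that continued past the 5 kb limit. These 2 loci held 11 of the 21 ES49 peaks of the short kind. Both places also carried short H3K27ac peaks in ES48, of 488 and 378 bp on chromosome 5 and 381 bp on chromosome 3.

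The broad kind among the 10 was led by chromosome 5 142500372 to 142501309, with an EWS-FLI1 score of 261.3 in a 5055 bp H3K27ac peak. It was followed by chromosome 4 154247180 to 154247650 (230.2, in 4442 bp) and chromosome 3 61212912 to 61214059 (206.3, in 3499 bp). Chromosome 3 80014366 to 80015290 (192.6, in 3109 bp) and chromosome 5 101379776 to 101380485 (165.6, in 4865 bp) completed it. Their EWS-FLI1 peaks were 938, 471, 1148, 925 and 710 bp wide, all above the ES49 median of 376 bp. All 5 places were acetylated in ES48 as well, in H3K27ac peaks of 9731, 1791, 4850, 10967 and 5611 bp. Only the first of the 5 overlapped an ES48 EWS-FLI1 peak.

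In ES48 4 of the 10 highest-scoring peaks had broad H3K27ac. These were chromosome 5 142500592 to 142501002 (score 150.0, in 9731 bp), chromosome 11 114415278 to 114415714 (143.2, in 4939 bp), chromosome 3 127736803 to 127737165 (140.4, in 9243 bp) and chromosome 1 76198397 to 76198644 (119.3, in 7172 bp). Of these 4 places, that on chromosome 3 was the exception in its acetylation. Its ES48 H3K27ac peak had a score of 3100, and the nearest ES49 H3K27ac peak was 137351 bp away. The other 6 of the 10 lay in or near H3K27ac peaks of 174 to 1057 bp. They were chromosome 13 97960493 to 97960593 (171.8), chromosome 1 124253750 to 124253822 (167.9), chromosome 19 61275490 to 61275715 (147.1), chromosome 17 13743914 to 13744179 (125.3), chromosome 9 110183721 to 110183859 (119.4) and, last of them, chromosome 7 27924815 to 27924895 (113.6). All 6 overlapped an ES49 EWS-FLI1 peak. Except on chromosome 19, that ES49 peak was over 5 kb from ES49 H3K27ac, at 7133 to 788896 bp.

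**Figure D3:**
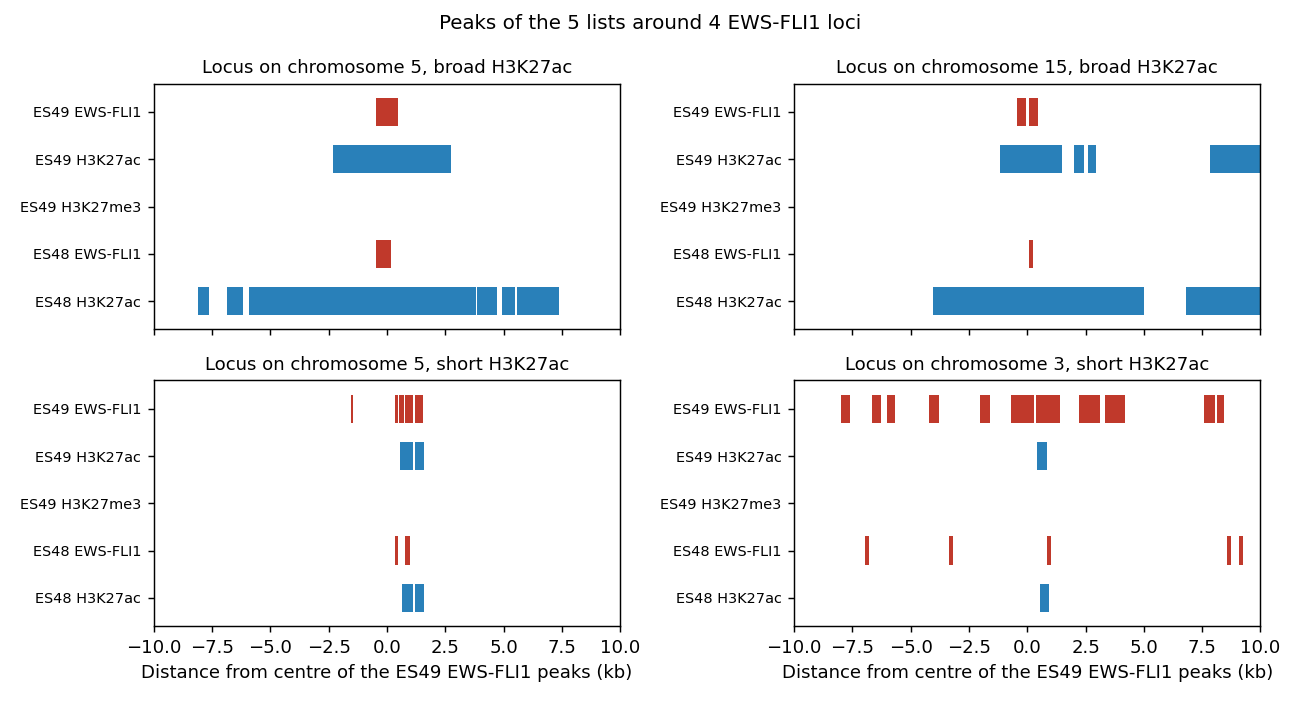
Peaks of the 5 lists around 4 ES49 loci of H3K27ac-proximal EWS-FLI1 peaks, drawn to scale against distance from the centre of the ES49 EWS-FLI1 peaks (kb), with the ES49 tracks above the ES48 tracks. In the upper panels EWS-FLI1 of both lines lies within broad H3K27ac. In the lower panels several ES49 EWS-FLI1 peaks lie on or beside H3K27ac peaks of 566, 417 and 441 bp. The H3K27me3 track is empty in all 4.

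Acetylation at most ES49 sites was also present in ES48, a list that the choice of ES49 peaks did not use. The choice did require ES49 H3K27ac, and 68.3% of all autosomal ES49 H3K27ac peaks overlapped ES48 H3K27ac. A high share is thus partly built into the rule. The shares over all autosomal ES49 peaks include 226 peaks over 5 kb from ES49 H3K27ac. An ES48 H3K27ac peak lay within 5 kb of 75 of 76 (98.7%, 92.9 to 100), where 36.7% of all autosomal ES49 EWS-FLI1 peaks had one. It overlapped 65 of 76 (85.5%, 75.6 to 92.5), where 28.1% of all autosomal ES49 peaks did. All 60 ES49 peaks that overlapped ES49 H3K27ac overlapped ES48 H3K27ac too, and 5 overlapped ES48 H3K27ac alone. The exception to the 75 was chromosome 2 5300318 to 5300532, 1799 bp from a 2155 bp ES49 H3K27ac peak and 295997 bp from any in ES48. Peaks near both marks had ES48 H3K27ac within 5 kb in 33 of 33 cases (100%, 89.4 to 100), so the high share is not particular to the H3K27ac-proximal peaks.

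At the ES48 sites the counts of ES49 acetylation were lower. The same caution holds, as 66.6% of all autosomal ES48 H3K27ac peaks overlapped ES49 H3K27ac. Of the autosomal ES48 EWS-FLI1 peaks, 295 were over 5 kb from ES48 H3K27ac. An ES49 H3K27ac peak lay within 5 kb of 69 of 83 (83.1%, 73.3 to 90.5), where 27.1% of all autosomal ES48 EWS-FLI1 peaks had one, and it overlapped 25 of 83 (30.1%, 20.5 to 41.2), against 12.2%. ES48 peaks near both marks had ES49 H3K27ac within 5 kb in 27 of 32 cases (84.4%, 67.2 to 94.7), close to the 83.1%. H3K27ac of both lines overlapped 24 of the 83, ES48 H3K27ac alone 19, ES49 H3K27ac alone 1, and 39 overlapped neither. Of the 19 in ES48 H3K27ac alone, 11 lay in H3K27ac peaks no wider than the list median. The difference between the lines was not tested. The median H3K27ac width was 838 bp in the ES49 list and 1475 bp in the ES48 list, and the part of this in the counts was not tested.

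**Figure D4:**
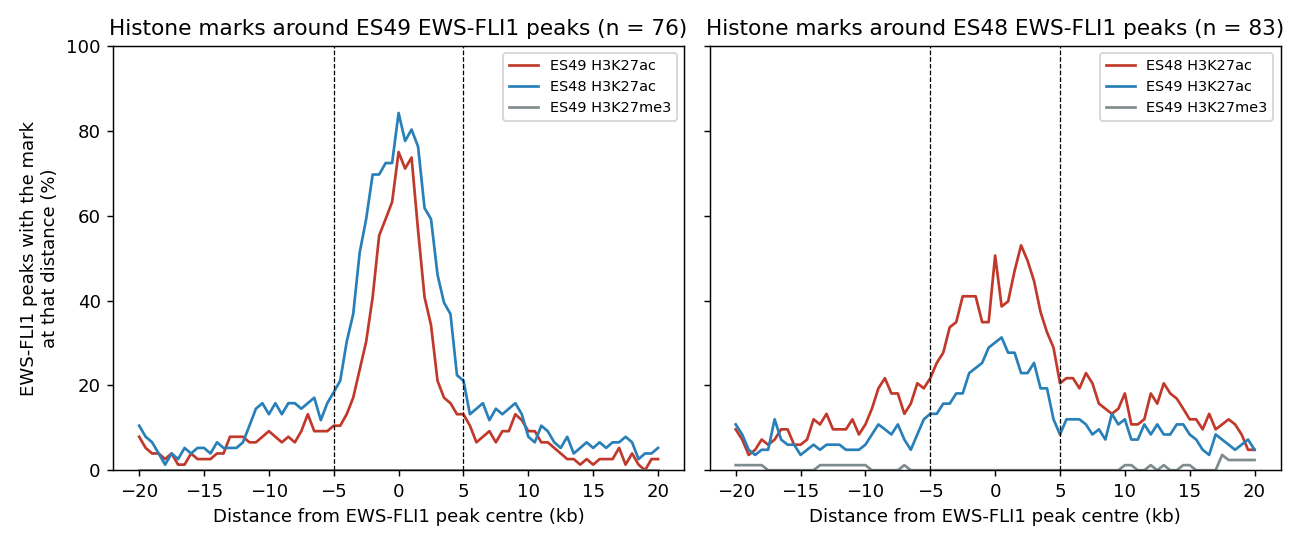
Share of H3K27ac-proximal EWS-FLI1 peaks (y axis, %) that carry each histone mark at a given distance from the peak centre (x axis, kb, in steps of 0.5 kb), for 76 ES49 peaks (left) and 83 ES48 peaks (right), with dashed lines at 5 kb. At the centre of the ES49 sites the shares are 75.0% for ES49 H3K27ac and 84.2% for ES48 H3K27ac. Around the ES48 sites ES48 H3K27ac is at 50.6% at the centre and at 41.0% and 53.0% 2 kb to either side.

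The overlap between the lines was also counted over H3K27ac peaks. ES49 H3K27ac peaks that overlapped an H3K27ac-proximal peak numbered 56, and 56 overlapped H3K27ac of ES48 (100%, 93.6 to 100), where 68.3% of all autosomal ES49 H3K27ac peaks did. Among ES49 H3K27ac peaks wider than the median, 44 of 44 with EWS-FLI1 did, against 90.2% of all such peaks. Among the others, 12 of 12 did, against 46.5%. In ES48 29 of 40 did (72.5%, 56.1 to 85.4), against 66.6% of all. The wide ones did in 25 of 26 cases (against 88.5%) and the others in 4 of 14 (28.6%, 8.39 to 58.1, against 44.3%). Both ES48 intervals by width include the value over all H3K27ac peaks of that width. In ES49 they lie above it, at 92.0 to 100 for the wide and 73.5 to 100 for the others. The split at the median does not match widths. In ES49 the H3K27ac peaks of the broad kind had a median of 3053 bp, and the 90.2% covers all peaks over 838 bp. Over all ES49 H3K27ac peaks, overlap was 46.5% below and 90.2% above that median. The part of width in the ES49 difference was not tested.

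Overlap with the other line's EWS-FLI1 peaks was low in ES49 beside overlap with its H3K27ac, and in ES48 the shares at the same 1 bp limit, 24.1% and 30.1%, had overlapping intervals. The lists differ greatly in size. On autosomes ES48 has 410 EWS-FLI1 and 25313 H3K27ac peaks, and ES49 has 335 and 29009. The H3K27ac peaks are also wider, with list medians of 1475 and 838 bp. Overlap with EWS-FLI1 and overlap with H3K27ac therefore cannot be compared directly. An ES48 EWS-FLI1 peak overlapped 12 of the 76 ES49 peaks (15.8%, 8.43 to 26.0), near the 18.5% of all autosomal ES49 peaks. Counting ES48 peaks within 5 kb gave 23 (30.3%, 20.2 to 41.9), against 40.9%. An ES49 EWS-FLI1 peak overlapped 20 of the 83 ES48 peaks (24.1%, 15.4 to 34.7), against 17.1%, and 21 with peaks within 5 kb (25.3%), against 19.5%. All 4 intervals include the share over all autosomal peaks. The ES48 overlap share moved with the H3K27ac condition: it was 41.86% (18 of 43) for peaks that overlapped H3K27ac, 37.25% within 1 kb, and 14.52% when only the upper 50% of H3K27ac peaks by score was used. Of the 64 ES49 peaks without an overlapping ES48 EWS-FLI1 peak, 64 had ES48 H3K27ac within 5 kb and 55 overlapped it. Of the 63 such ES48 peaks, 57 had ES49 H3K27ac within 5 kb and 18 overlapped it.

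**Figure D5:**
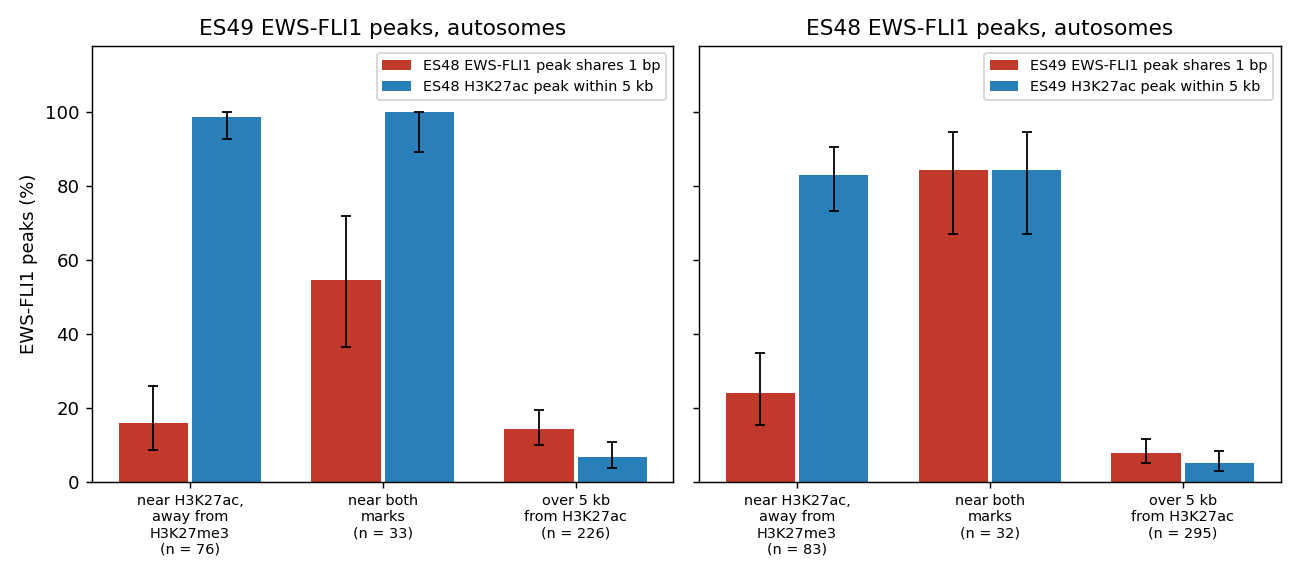
Share of autosomal EWS-FLI1 peaks (y axis, %) that share at least 1 bp with an EWS-FLI1 peak of the other line (red) or have an H3K27ac peak of the other line within 5 kb (blue), in ES49 (left) and ES48 (right), for peaks near H3K27ac and away from H3K27me3, near both marks, and over 5 kb from H3K27ac. Error bars are 95% Clopper-Pearson intervals over peaks. The H3K27ac-proximal peaks have 15.8% and 24.1% shared EWS-FLI1 with 98.7% and 83.1% acetylation in the other line. Red and blue bars rest on lists of unlike size and on unlike distance limits.

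Peaks near both marks were shared more often, in 18 of 33 ES49 cases (54.5%, 36.4 to 71.9) and 27 of 32 ES48 cases (84.4%, 67.2 to 94.7). These intervals lie above those of the H3K27ac-proximal peaks. At several of these places nearly the same interval was called in every list. On chromosome 17 EWS-FLI1 was called at 36621598 to 36622023 in ES49 and 36621512 to 36621929 in ES48. H3K27ac was called at 36621538 to 36621983 in ES49 and 36621383 to 36621978 in ES48, and ES49 H3K27me3 at 36621569 to 36621956. Elsewhere on chromosome 17 ES48 EWS-FLI1 was called at 39979938 to 39983636 and ES48 H3K27ac at 39979849 to 39983719. ES49 H3K27ac was called there at 39979715 to 39983706, and ES49 H3K27me3 at 39979797 to 39983664. The ES49 EWS-FLI1 peak there ran farther, from 39979913 to 39985792. The cause was not tested, and the input was not analysed. Dense loci held 18 of the 33 and 13 of the 32, so the peaks are not independent. Outside the dense loci the shares were 10 of 15 in ES49 (66.7%, 38.4 to 88.2) and 14 of 19 in ES48 (73.7%, 48.8 to 90.9). Autosomal peaks over 5 kb from H3K27ac were shared in 32 of 226 cases in ES49 (14.2%, 9.89 to 19.4) and 23 of 295 in ES48 (7.80%, 5.01 to 11.5). In ES49 that interval overlaps the one of the H3K27ac-proximal peaks, and in ES48 it lies below it.

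Shares of EWS-FLI1 peaks found in both lines were higher at short than at broad H3K27ac. In ES49 6 of 21 EWS-FLI1 peaks at short H3K27ac overlapped an ES48 peak (28.6%, 11.3 to 52.2), against 6 of 55 at broad H3K27ac (10.9%, 4.11 to 22.2). In ES48 the counts were 13 of 30 (43.3%, 25.5 to 62.6) and 7 of 53 (13.2%, 5.48 to 25.3). The intervals overlap in ES49 and are just apart in ES48. Median EWS-FLI1 scores were also higher at short H3K27ac, 112.1 against 67.9 in ES49 and 64.7 against 57.9 in ES48. Of all autosomal peaks 18.5% were shared in ES49 and 17.1% in ES48. At scores of at least 100 these shares were 36.2% and 79.5%. The part of score in the difference between the kinds was not tested. Of the 21 in ES49, 11 came from the pair of crowded loci, so they are not independent. Among peaks with a score of at least 100, a limit chosen after the values were seen, 7 of 27 H3K27ac-proximal peaks were shared in ES49 (25.9%, 11.1 to 46.3), against 40 of 103 other autosomal peaks (38.8%, 29.4 to 48.9) and 36.2% of all. In ES48 8 of 12 were (66.7%, 34.9 to 90.1), against 27 of 32 others (84.4%, 67.2 to 94.7) and 79.5% of all. The intervals overlap in both lines.

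The peaks that belonged to the set in both lines formed 12 overlapping pairs, from 11 ES49 and 12 ES48 peaks. Their centres were 1.5 to 365.5 bp apart, with a median of 60.3 bp, and the ES49 peak was the wider in 11 of 12. In 5 of the 12 pairs the H3K27ac peaks of both lines were wider than 1500 bp. The first place of this kind was chromosome 5 142500372 to 142501309 in ES49 (score 261.3), which spanned both 142500384 to 142500566 (54.7) and 142500592 to 142501002 (150.0) of ES48. Here ES49 H3K27ac was 5055 bp and ES48 H3K27ac 9731 bp wide, and the score of each was 3100.

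The second was chromosome 15 61860817 to 61861196 in ES49 (114.8) and 61860818 to 61861023 in ES48 (78.7), in H3K27ac peaks of 2669 and 6040 bp. The third was chromosome 1 76198376 to 76198729 in ES49 (105.8) and 76198397 to 76198644 in ES48 (119.3), in 3330 and 7172 bp. The fourth was chromosome 2 60568434 to 60568673 in ES49 (59.7) and 60568413 to 60568686 in ES48 (96.5), in 3953 and 5736 bp. At all 4 places the centres of the ES49 peak and the nearest ES48 peak differed by under 100 bp, and ES48 had the wider H3K27ac peak. The ES49 peaks were 580294 to 2889937 bp from H3K27me3.

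The 7 other pairs had shorter H3K27ac in at least 1 line. At chromosome 4 76597474 to 76597862 and 24143234 to 24143659 the ES49 EWS-FLI1 peak (83.5 and 75.7) lay 290 and 109 bp outside an ES49 H3K27ac peak of 1368 and 752 bp. The ES48 peaks there, 76597848 to 76598017 (57.3) and 24143347 to 24143572 (51.8), were inside H3K27ac peaks of 5307 and 3384 bp. At chromosome 19 61275528 to 61275835 in ES49 (78.5) and 61275490 to 61275715 in ES48 (147.1) the H3K27ac peaks were 790 and 1057 bp. At chromosome 10 127878827 to 127879141 in ES49 (132.8) and 127878847 to 127879017 in ES48 (87.5), an H3K27ac peak of 232 bp was called over the site in ES48 alone. The 3 remaining pairs were those of the crowded loci on chromosomes 5 and 3. They joined ES49 105356873 to 105357229 (998.7) with ES48 105356873 to 105357062 (62.7), ES49 105356441 to 105356553 (145.1) with ES48 105356440 to 105356551 (78.3), and ES49 25434526 to 25435556 (185.0) with ES48 25435025 to 25435194 (57.3).

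A further 8 ES48 peaks overlapped an ES49 EWS-FLI1 peak that was over 5 kb from ES49 H3K27ac. All 8 were at short ES48 H3K27ac, and the ES49 EWS-FLI1 scores there were 83.5 to 346.9. Examples are chromosome 6 67614506 to 67614692, where the scores were 242.5 in the ES49 list and 83.2 in the ES48 list, with an ES48 H3K27ac peak of 288 bp and the nearest ES49 H3K27ac peak 395865 bp from the ES49 peak. Chromosome 7 29279216 to 29279398 had scores of 247.1 and 64.2 in those lists, with ES48 H3K27ac of 282 bp. In the other direction there was 1, chromosome 2 5300318 to 5300532 (56.2), whose ES48 counterpart at 5300259 to 5300426 scored 72.2.

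Some H3K27ac-proximal peaks lay in or within 5 kb of long acetylated domains. Domains were made by joining H3K27ac peaks less than 12.5 kb apart and were ranked by covered length. Each EWS-FLI1 peak was given the domain of its nearest H3K27ac peak, at any distance. A domain in the first 1000 of the line was nearest to 19 ES49 peaks (25.0%, 15.8 to 36.3) and 34 ES48 peaks (41.0%, 30.3 to 52.3). The lines had 13484 and 13750 domains. All autosomal peaks gave 10.1% in ES49 and 13.9% in ES48, but 226 and 295 of them were over 5 kb from H3K27ac. Those shares thus count the nearest domain, not position inside it. Peaks near both marks gave 36.4% (12 of 33) and 6.25% (2 of 32). Most of these 12 were nearest to a single domain, chromosome 2 27353143 to 27371820, of rank 765 in ES49. Its ES48 counterpart, 27353142 to 27372103, had rank 1079, past the limit of 1000. The contrast between 36.4% and 6.25% thus rests largely on that locus. Long domains are also closer to more of the genome. In ES49 6 peaks were in the first 100. The domain of rank 1, chromosome 5 120940333 to 121079224, held EWS-FLI1 at 120986761 to 120987144 (106.2) and 120987172 to 120987474 (53.1), in a 9578 bp H3K27ac peak that was the widest of the ES49 set. Rank 3 held chromosome 11 75036986 to 75037307 (55.6), rank 25 held chromosome 2 71796854 to 71797400 (121.6), and rank 53 held chromosome 8 67584507 to 67584750 (63.7) and 67656909 to 67657181 (64.7). All 6 overlapped ES48 H3K27ac, and the nearest ES48 EWS-FLI1 peak to any of them was 109102 bp away.

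In ES48 4 peaks were in the first 100 domains. They were chromosome 15 77654940 to 77655109 (66.6) at rank 29, chromosome 8 47299343 to 47299535 (62.1) at rank 58, chromosome 2 60568413 to 60568686 (96.5) at rank 76 and chromosome 11 116983210 to 116983375 (52.1) at rank 90. The one on chromosome 2 was shared with ES49. The widest H3K27ac peak near an ES48 peak was 18205 bp, 1405 bp from chromosome 5 74670552 to 74670819 (84.7), and that on chromosome 8 was 15888 bp with EWS-FLI1 inside it. The next were the peak of 11326 bp on chromosome 15 and the 9731 bp peak on chromosome 5 with 2 EWS-FLI1 peaks. In ES49 the widest after the first were 9348 bp (chromosome 4 154246219 to 154246593, 86.3), 7226 bp (chromosome 8 67656909 to 67657181) and 5723 bp (chromosome 1 66723079 to 66723473, 75.6).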

How the data were processed

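The 5 ChIP-seq lists of called peaks were analysed, from 6 samples. The submitters' processing notes name the mm9 build, Bowtie 1.1.1 and SAMtools 1.2. The peak names start with MACS; its version, thresholds and control sample are not stated by the labels. Each deposited list gives a position and a score per peak, the authors' own, on a scale that is not stated. A stricter or looser threshold would change which peaks are listed, and so every overlap.

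Distances run from edge to edge, with 0 for peaks that share at least 1 bp. Shares carry 95% Clopper-Pearson intervals. No test was run, since each group has 1 library. Distances were tested on simulated data, where 1000 of 1000 intervals matched a count base by base. Alternatives changed both distance limits, the score minimum, the definition of sharing and the unit counted. The members of the set and the lists were chosen with earlier results of these data known. Named regions are the 10 highest-scoring members per line, all members shared by the lines, the 5 with the widest H3K27ac and those next to the limits; members in the first 100 domains and those shared with a peak outside the set were added after their values were seen. The planned counts of gene positions and of GGAA motifs were not run, as no sequence or annotation of this build was used. Software: scipy 1.17.1 gave the intervals, pandas 2.3.3 with numpy 2.4.6 the tables, matplotlib 3.10.9 the figures, under Python 3.11.15.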

Additional observations from a re-analysis of the deposited data

How the results depend on the processing

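No paired analysis was possible because each group has 1 library. Of 116 values under alternatives, 87 stayed within the main interval or within 1.5 times the main count. The limit used for medians is not given here. It was narrower than the quartiles, since an ES48 median score of 63.73 was counted as outside. With overlap of 1 bp in place of 5 kb, ES48 had 43 peaks, 41.86% shared with ES49 EWS-FLI1, a median score of 63.73 and a width of 191 bp, and the ES49 share with ES48 H3K27ac was 100%. With H3K27ac within 1 kb that ES49 share was also 100%, and ES48 had 51 peaks, 37.25% of them shared. With 10 kb, acetylation in the other line fell to 86.36% in ES49 and 63.39% in ES48. With the upper 50% of EWS-FLI1 peaks by score, ES49 had 24 peaks with a median score of 149.2, a width of 557.5 bp and 100% acetylated in ES48. ES48 then had 27, with 96.46, 206 bp, 37.04% shared and 66.67% acetylated in ES49. With the upper 50% of H3K27ac, 14.52% of ES48 peaks were shared. Sharing within 5 kb gave 30.26% in ES49. Acetylation of the other line by overlap was 85.53% in ES49 and 30.12% in ES48, and within 1 kb 89.47% and 48.19%. With nearby H3K27ac wider than 1500 bp, an alternative added after seeing the data, ES49 had 45 peaks and ES48 53, of which 13.21% were shared and 94.34% acetylated in ES49. The causes were not tested. The other results, among them those without the dense loci and with peaks joined into loci, did not move past these limits. Depth is unknown, so absent peaks may be missed calls.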
